A study of Mus musculus with 3 samples.

Results

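A set of 9 genes that guide blood cells into and out of tissues were described in mouse acute myeloid leukemia: the chemoattractant receptors Cxcr4 and Cxcr2, the sphingolipid receptor S1pr1, the integrin chains Itga4, Itga5, Itgal, Itgb1 and Itgb2, and the selectin ligand gene Selplg. They were chosen by symbol, and all 9 were found, each on 1 row, among 28074 gene symbols of the deposited table. The samples were the leukemic spleens of 3 independent, moribund animals, here called mice 1, 2 and 3 (animals 5348, 5451 and 5480). They form 1 group. All animals lacked miR-196b and carried Flt3-ITD, an internal tandem duplication of the receptor Flt3, on both alleles. The genotype field gives floxed Dnmt3a on both chromosomes with Mx1-Cre, whereas the titles give 1 lost Dnmt3a copy. Mx1-Cre is driven by an interferon-inducible promoter that is active in blood cells and in some other tissues. Splenocytes were freed of red blood cells and enriched for c-Kit, a receptor of immature blood cells, before RNA was taken, so the values describe an enriched spleen fraction and hold no marrow or blood sample for comparison. Ages are not given in the labels. The study names Dnmt3a/Flt3-ITD leukemias of another series as its control, which were not analysed here. The values below therefore describe levels and the spread between the 3 mice, with no test, and no effect of miR-196b loss was measured.

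Leukocyte homing proceeds in steps. A selectin ligand first slows a flowing cell on the vessel wall, a chemoattractant receptor then signals through an inhibitory G protein, and integrins, which are pairs of 1 alpha and 1 beta chain, finally hold the cell to proteins of the endothelium or the matrix. In the bone marrow, Cxcr4 and the integrin made of Itga4 and Itgb1 retain stem and progenitor cells, while S1pr1 senses the sphingosine-1-phosphate of blood and draws lymphocytes out of lymphoid tissue.

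The microRNA that all 3 mice lacked is shown first, because its loss is what the labels add to the Dnmt3a and Flt3 lesions. The RefSeq table for GRCm38.p6 places mature miR-196b-5p on chromosome 6, positions 52230129 to 52230150, minus strand. Capitals mark its seed, bases 2 to 8.

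mmu-miR-196b-5p: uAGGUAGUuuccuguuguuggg

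The seed complement was searched on the transcript strand in the longest 3′ UTR of each gene in GENCODE M21 (GRCm38, which corresponds to the mm10 build in the submitters' processing notes). The letters sought were CTACCT (6 bases), CTACCTA or ACTACCT (7 bases) and ACTACCTA (8 bases). Among the 9 genes, Itgal was the only one with a 7-base match, and none had the 8-base match. At least a 6-base match was present in 3 of the 9, namely Itgal, Cxcr2 and Itga4, compared with 26.2% of 20972 protein-coding genes. A match of 7 or 8 bases occurred in 10.4% of those genes and the 8-base match in 1.26%. Cxcr4, S1pr1, Itga5, Itgb1, Itgb2 and Selplg had no such letters in their 3′ UTR. The Itgal match and the single Cxcr2 match are printed to show the difference, with the matched letters in capitals.

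Itgal, chr7:127334345-127334373, plus strand: cttagttcatttCTACCTAtcactgagct

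Cxcr2, chr1:74161182-74161210, plus strand: atgcagaactatCTACCTtataatttctt

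Itgal also had a 6-base match, and Itga4 had 4 of them along a 3′ UTR of 6508 bases, against a median of 955 bases over all genes. Of the 7 matches in the 9 genes, 2 read CTACCTC and so also match the seed of let-7a, a microRNA whose seed overlaps that of miR-196b. These matches describe sequence only.

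Most of these genes were abundant. All 9 reached a mean of 1 TPM, the threshold used for detection, where TPM is transcript abundance scaled per length to a fixed total per library. The median of their means was 129 TPM, compared with 17.5 TPM over the 15181 genes at or above that threshold. In all, 6 members lay above the 90th percentile of those genes, 98.2 TPM: Itga4, Itgb1, Selplg, Itgb2, Cxcr4 and Itgal. Cxcr2 and Itga5 stood in the middle of the distribution, at percentiles 63.2 and 57.1, and S1pr1 stood near its floor, at percentile 2.19.

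**Figure D1:**
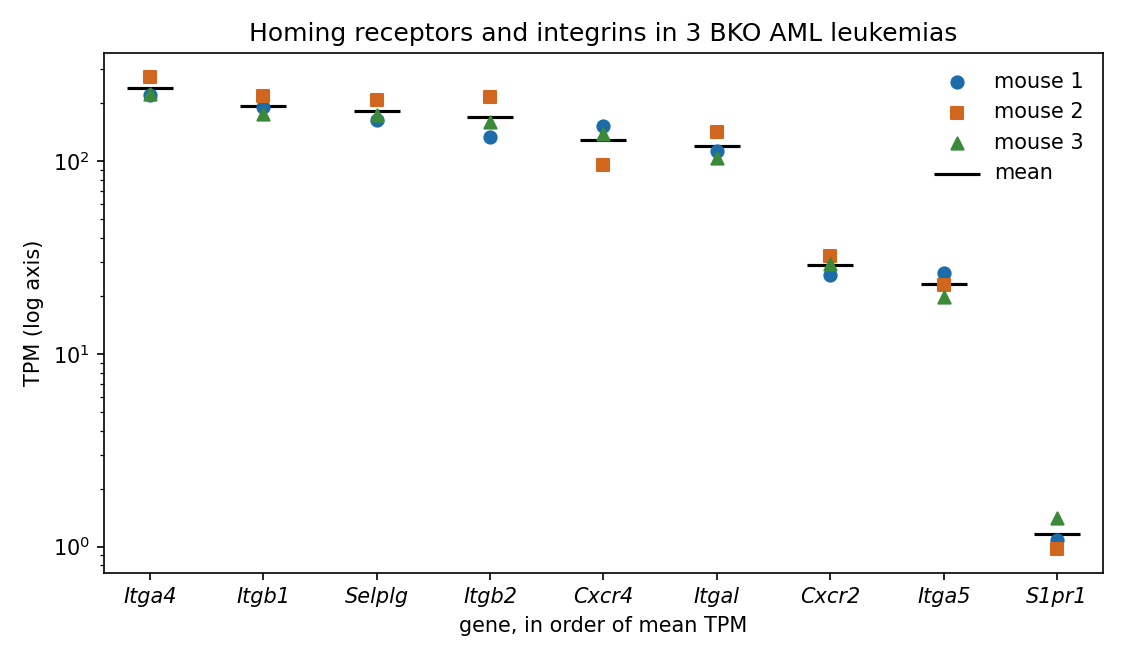
TPM of the 9 genes (log axis) in mice 1, 2 and 3, with the mean of the mice as a bar, in order of the mean. Itga4 is highest at a mean of 240.2 TPM, Cxcr2 and Itga5 form a middle pair near 29.1 and 23.1 TPM, and S1pr1 lies apart at 1.16 TPM.

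In the order of levels, Itga4 came first, and its lowest mouse lay above the highest mouse of Itgb1. The ranges of Itgb1, Selplg and Itgb2 overlapped one another, as did those of Itgb2, Cxcr4 and Itgal, so the ranges alone do not order these genes. Within each mouse, Itgb1 lay above Selplg and Itgb2, and Itgb2 lay above Itgal. The margin of Itgb1 was narrow over Itgb2 in mouse 2 (218.2 against 216.9 TPM) and over Selplg in mouse 3 (175.7 against 174.6 TPM). Selplg and Itgb2, Itgb2 and Cxcr4, and Cxcr4 and Itgal changed order between mice. Cxcr2 and Itga5 also overlapped each other and changed order. S1pr1 lay below every other member in all mice. Of the 36 pairs of members, 29 did not overlap.

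Cxcr4, the receptor for the chemokine Cxcl12, had 152.5, 95.7 and 138.8 TPM in mice 1, 2 and 3, a mean of 129.0 ± 29.7 TPM (SD, n = 3). Mouse 2 was low, and the other mice were close to each other. The highest mouse was 1 as deposited and 3 after scaling each library to a common upper quartile. The gene lies on chromosome 1 (128588199 to 128592293, minus strand). Its ligand gene Cxcl12, made mainly by stromal and endothelial cells, was listed at 0, 0.0254 and 0.0886 TPM.

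Cxcr2 binds the neutrophil-attracting chemokines and is a marker of maturing neutrophils. It had 25.6, 32.4 and 29.3 TPM in mice 1, 2 and 3, a mean of 29.1 ± 3.39 TPM, so the mice differed little. Cxcr4 was 5.95, 2.95 and 4.74 times as abundant as Cxcr2 in the same mice. Cxcr2 lies on chromosome 1 (74153989 to 74161246, plus strand). Its near relative Cxcr1 was listed at 0 in all 3 mice, and no other row repeated the values of any of the 9 genes.

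Other neutrophil genes spread far more widely between mice than Cxcr2, although Cxcr2 was not unusually steady among all detected genes. Its SD on the log2(TPM + 1) scale, 0.16, stood at percentile 36.5 of them. After upper-quartile scaling its SD was 0.22, above the median of 0.19 over detected genes. The 9 other neutrophil markers examined were all highest in mouse 3 and lowest in mouse 1, and their summed level was 2287, 6097 and 20508 TPM in mice 1, 2 and 3. Ly6g, a surface marker of mature neutrophils, had 0.429, 6.77 and 28.5 TPM, a TPM ratio of 66.5 between the highest and the lowest mouse. Retnlg, with the smallest TPM ratio among these markers, still differed 2.70-fold, whereas Cxcr2 differed 1.26-fold in TPM and was highest in mouse 2. In bulk RNA, fewer cells of a type and less RNA per cell cannot be told apart. The part of such cells in the level of Cxcr2 was not tested.

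**Figure D2:**
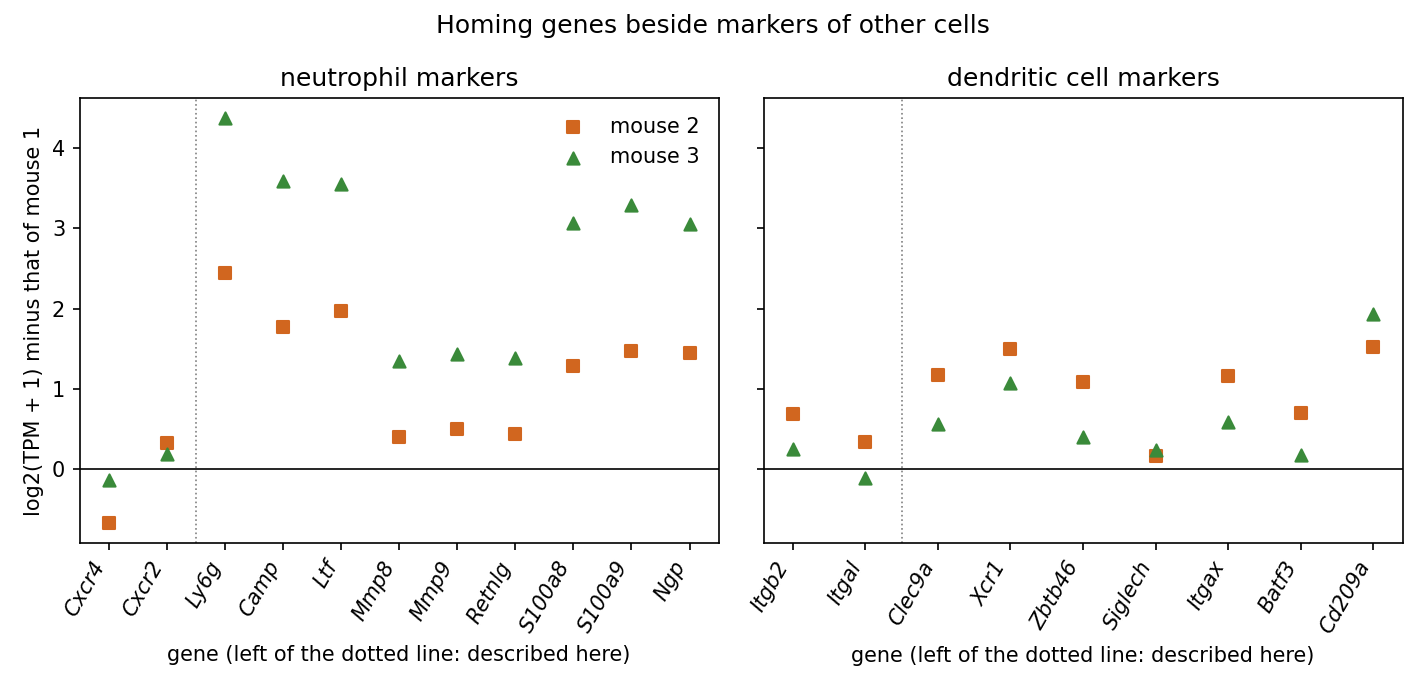
Difference of log2(TPM + 1) from mouse 1 in mice 2 and 3, for Cxcr2 and Cxcr4 beside neutrophil markers (left) and Itgb2 and Itgal beside dendritic cell markers (right). All 9 neutrophil markers lie highest in mouse 3, whereas Cxcr2 is highest in mouse 2 and Cxcr4 lowest there, and Itgb2 ranks the mice as Clec9a does.

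S1pr1, the receptor for lymphocyte exit, was at the edge of detection, with 1.09, 0.973 and 1.41 TPM in mice 1, 2 and 3 (mean 1.16 ± 0.229 TPM). It made up 3.99% ± 0.636 of the summed TPM of the 5 S1pr genes. S1pr4, a receptor of the same family found in blood cells, made up 51.7% ± 1.51, at 15.8, 13.7 and 15.3 TPM. S1pr4 was thus between 10.8 and 14.6 times as abundant as S1pr1 in each mouse. S1pr2 had 7.42 ± 0.529 TPM, S1pr3 had 4.90 ± 0.847 TPM and S1pr5 had 0.488 ± 0.0826 TPM. S1pr1 lies on chromosome 3 (115710433 to 115715072, minus strand).

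Klf2, a transcription factor known to switch on S1pr1 in lymphocytes, was abundant in the same libraries, at 313.6, 640.8 and 368.6 TPM. Cd69, whose protein removes S1pr1 from the surface of lymphocytes, had 90.6, 115.3 and 98.1 TPM. Markers of lymphocytes were present. The 10 T and NK cell markers summed to 34.6, 37.5 and 42.0 TPM, and the 7 B cell markers to 79.2, 135.4 and 270.1 TPM. Both sums, like S1pr1, were highest in mouse 3, and the part of lymphocytes in the level of S1pr1 was not tested.

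Among the other genes of sphingosine-1-phosphate handling, 10 of 11 were detected and 5 differed at least 2-fold between mice on the log2(TPM + 1) scale, Klf2 among them, compared with 8.57% of detected genes. The kinase gene Sphk1, which makes the lipid, had 5.38, 2.66 and 13.3 TPM in mice 1, 2 and 3. The exporter gene Spns2 had 93.3, 48.8 and 37.6 TPM. Mfsd2b, an exporter of red cells and platelets, had 13.8, 10.1 and 22.7 TPM. The lipid phosphatase genes Ppap2a and Ppap2b (now Plpp1 and Plpp3) stood at 60.5 ± 21.9 and 0.0928 ± 0.0605 TPM, and the first of them was the remaining gene of the 5. These genes did not share 1 order of mice.

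**Figure D3:**
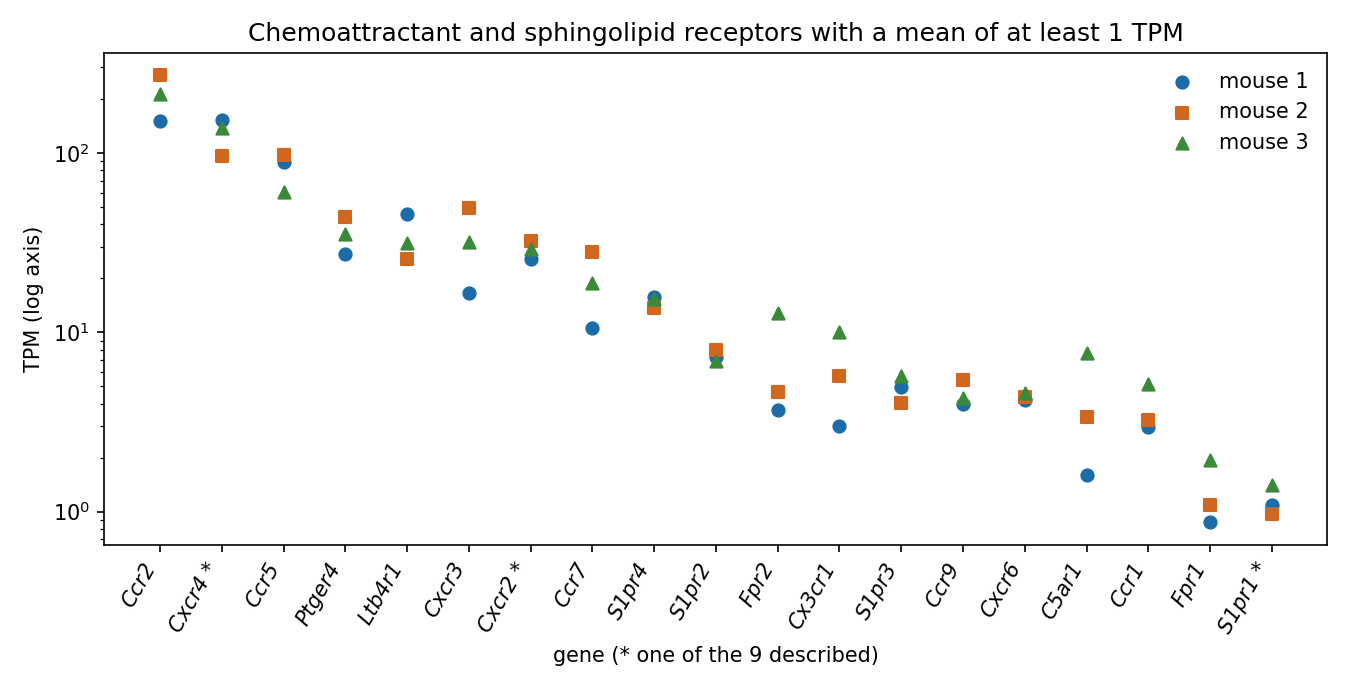
TPM (log axis) of chemoattractant and sphingolipid receptor genes with a mean of at least 1 TPM in mice 1, 2 and 3, in order of the mean. Asterisks mark Cxcr4 (second, after Ccr2), Cxcr2 and S1pr1 (last), and Fpr2 and C5ar1 show the widest spread between mice.

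Cxcr4 was second in mean level among the chemoattractant receptor genes examined, after Ccr2, the receptor that brings monocytes out of the marrow, which had 150.4, 271.2 and 214.8 TPM. Their ranges overlapped, and Cxcr4 was the higher in mouse 1, at 152.5 TPM. The list examined held 20 further receptors, of which 16 were detected and 5 were at least 2-fold apart between mice on the log2(TPM + 1) scale, compared with 8.57% of detected genes. Cxcr3 (16.5, 49.2 and 31.9 TPM) and Ccr7 (10.5, 28.1 and 18.9 TPM), receptors for lymphoid and inflamed tissue, were highest in mouse 2. Fpr2 (3.70, 4.65 and 12.8 TPM) and C5ar1 (1.61, 3.35 and 7.63 TPM), receptors of phagocytes for formylated peptides and complement, were highest in mouse 3, as was Cx3cr1. The ratio of TPM between the highest and lowest mouse was 1.59 for Cxcr4, 1.26 for Cxcr2 and 1.45 for S1pr1.

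Itga4, the alpha chain that binds the vascular molecule Vcam1, had 221.0, 275.4 and 224.3 TPM in mice 1, 2 and 3, a mean of 240.2 ± 30.5 TPM. Mouse 2 was high, and the other mice nearly coincided. The gene lies on chromosome 2 (79255426 to 79333123, plus strand), and its exons overlap those of Cerkl on the opposite strand. Cerkl had 10.96, 12.26 and 11.55 TPM, and whether the authors' counting used strand is not given in the sources used here.

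Itga5, the alpha chain of the main fibronectin receptor, was far lower, with 26.4, 22.9 and 19.8 TPM and a mean of 23.1 ± 3.27 TPM. Mouse 1 was highest and mouse 3 lowest, under upper-quartile scaling too. Itga4 was 8.38, 12.01 and 11.30 times as abundant as Itga5 in mice 1, 2 and 3. Itga5 lies on chromosome 15 (103344286 to 103366763, minus strand).

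Itgb1, the beta chain shared by both, had 191.0, 218.2 and 175.7 TPM, a mean of 195.0 ± 21.5 TPM, and again mouse 2 was highest. It lies on chromosome 8 (128685654 to 128733200, plus strand). Itga4 exceeded Itgb1 in each mouse, by 1.16, 1.26 and 1.28 times. Itga4 can also pair with the product of Itgb7, the beta chain of gut-homing integrins, which had 193.9, 241.1 and 151.4 TPM. Against Itgb1 and Itgb7 together, the ratio of Itga4 was 0.574, 0.600 and 0.686. Of the summed TPM of the 12 alpha genes whose products can pair with that of Itgb1, Itga4 held 55.5% ± 4.05 and Itga5 5.33% ± 0.650. These are RNA levels and do not show how many pairs form at the surface.

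Itgal and Itgb2 encode the pair that binds Icam1 and is found on leukocytes. Itgal had 112.8, 142.6 and 104.5 TPM in mice 1, 2 and 3 (mean 120.0 ± 20.1 TPM), and Itgb2 had 133.7, 216.9 and 160.0 TPM (mean 170.2 ± 42.5 TPM). Both were highest in mouse 2. Itgal was lowest in mouse 3 as deposited and in mouse 1 after upper-quartile scaling, while Itgb2 was lowest in mouse 1 under both. They lie on chromosome 7 (127296260 to 127335138, plus strand) and chromosome 10 (77530252 to 77565708, plus strand).

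Itgb2 also pairs with the products of Itgax, Itgam and Itgad. Itgal held 57.9%, 44.4% and 39.0% of the summed TPM of these 4 alpha genes in mice 1, 2 and 3. Itgam, a chain of neutrophils and macrophages, held 6.89%, 7.34% and 22.4%, with 13.4, 23.6 and 60.04 TPM. Itgax, a chain of dendritic cells, had 68.6, 155.2 and 103.6 TPM and held 35.2%, 48.3% and 38.6%. Itgad was listed at 0 throughout. The alpha partners of Itgb2 therefore differed in make-up between mice, with more Itgam in mouse 3 and more Itgax in mouse 2, while their sum was 1.46, 1.48 and 1.68 times the level of Itgb2.

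Itgb2 and Itgb1 were compared within each mouse. On the log2(TPM + 1) scale the difference, Itgb2 minus Itgb1, was -0.51, -0.0086 and -0.13 in mice 1, 2 and 3, with a mean of -0.22 ± 0.26 (SD, n = 3). Its size was smaller than the SD between mice. The sign was the same in all 3 mice.

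**Figure D4:**
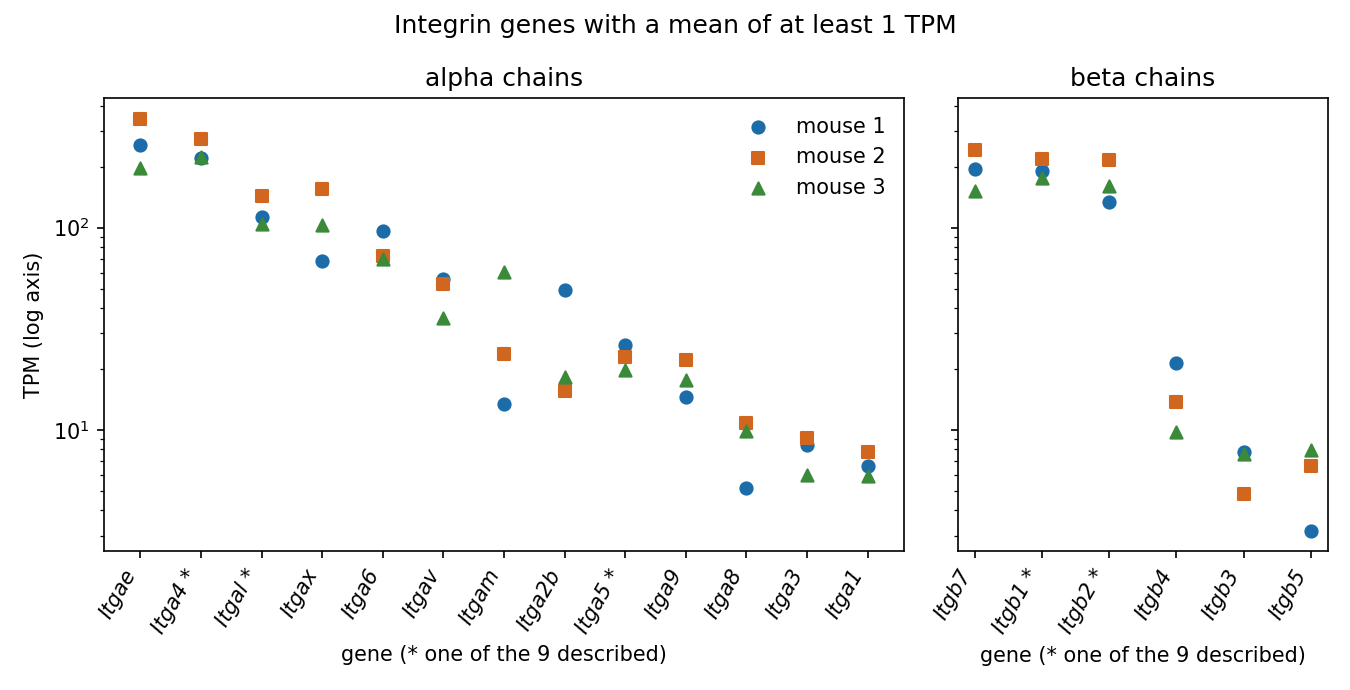
TPM (log axis) of the 13 alpha and 6 beta integrin genes with a mean of at least 1 TPM in mice 1, 2 and 3, asterisks marking the 5 described chains. Itga4 is second in mean among alpha chains after Itgae, with overlapping ranges, Itgb1 and Itgb2 follow Itgb7 among beta chains with overlapping ranges, and Itgam and Itga2b show the widest spread.

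Of 26 integrin genes in the table, 18 alpha and 8 beta, 19 were detected. Itgae, the alpha partner of Itgb7 that binds E-cadherin, had the highest mean, with 255.9, 346.1 and 196.5 TPM, but lay below Itga4 in mouse 3, and their ranges overlapped. Of the 14 detected chains outside the 9 genes, 5 were at least 2-fold apart between mice on the log2(TPM + 1) scale, compared with 8.57% of detected genes: Itgam, Itgax, Itga2b, Itgb4 and Itgb5. Itga2b, the platelet chain, had 49.0, 15.5 and 18.2 TPM. Itgb4 had 21.4, 13.7 and 9.79 TPM and Itgb5 had 3.17, 6.65 and 7.97 TPM.

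Selplg encodes PSGL-1, the ligand through which leukocytes roll on selectins. It had 164.7, 207.0 and 174.6 TPM in mice 1, 2 and 3, a mean of 182.1 ± 22.1 TPM, and mouse 2 was highest. It lies on chromosome 5 (113818536 to 113832644, minus strand). PSGL-1 binds selectins only after sugars are added. All 15 other genes of the selectin and glycosylation list were detected, and none was at least 2-fold apart between mice on the log2(TPM + 1) scale, compared with 8.57% of detected genes. Fut7, the fucosyltransferase needed for selectin binding, had 15.5, 15.2 and 19.4 TPM. Cd24a was highest in the list at 633.1 ± 55.4 TPM, and Selp, a selectin of platelets and endothelium, was lowest at 1.11 ± 0.169 TPM.

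Genes for ligands of these receptors were mostly low. Of 15 examined, 11 were detected, and 6 were at least 2-fold apart between mice on the log2(TPM + 1) scale, compared with 8.57% of detected genes. Icam1, the ligand of the Itgal and Itgb2 pair, had 20.7, 45.1 and 32.1 TPM and the highest mean, but Icam2, another ligand of that pair, was above it in mice 1 and 3 (26.7, 23.9 and 35.1 TPM). Vcam1, the ligand of Itga4, had 2.35, 4.49 and 5.94 TPM. Fn1, encoding fibronectin, had 6.20, 1.34 and 9.29 TPM. Cxcl2, a ligand of Cxcr2, had 3.21, 7.21 and 11.2 TPM, and Pf4, a chemokine of platelets, had 26.0 ± 22.7 TPM and was also highest in mouse 3, as was Ppbp, another platelet chemokine, at 1.11, 1.56 and 5.83 TPM.

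The intracellular machinery was more abundant. All 25 genes of chemoattractant receptor signalling were detected, with a median of 117 TPM, and 0 of them were at least 2-fold apart between mice on the log2(TPM + 1) scale, compared with 8.57% of detected genes. Grk5, a receptor kinase, had the lowest mean, 11.3 ± 1.97 TPM. Gnb2 had the highest, at 487 ± 52.5 TPM, but lay below Cdc42 in mouse 3 (436.5 against 460.2 TPM). Gnai2, the inhibitory G protein through which Cxcr4, Cxcr2 and S1pr1 signal, had 436.1, 457.7 and 418.0 TPM. Among 22 genes that link integrins to actin or activate them, 19 were detected, with a median of 105 TPM. Tln1, encoding talin, had 311.8, 347.0 and 292.0 TPM, and Fermt3, encoding the kindlin of blood cells, had 152.0, 136.6 and 128.6 TPM. The other kindlin genes, Fermt1 and Fermt2, stood at 0.342 and 0.0457 TPM. Cytip, encoding a partner of the integrin regulator cytohesin, had 413.0, 279.4 and 163.4 TPM and was the 1 gene of this list called 2-fold apart on the log2(TPM + 1) scale, compared with 8.57% of detected genes. Zyx, encoding the adhesion-site protein zyxin, had the highest mean, 343.2 ± 68.8 TPM. It lay below Cytip in mouse 1 (329.6 TPM) and below Tln1 in mouse 3 (282.3 TPM).

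The last list held proteases that release cells or cut homing proteins, and their inhibitors. Of 12 such genes, 10 were detected, and 5 were at least 2-fold apart on the log2(TPM + 1) scale, compared with 8.57% of detected genes. Elane, the neutrophil elastase gene, had 410.3, 271.2 and 736.3 TPM. Ctsg, encoding cathepsin G, had the highest mean, 515.6 ± 125 TPM, but lay below Elane in mouse 3, at 552.5 TPM. Mmp9 (4.87, 7.29 and 14.9 TPM) and Mmp8 (4.21, 5.89 and 12.2 TPM) were highest in mouse 3, and both also stand in the list of neutrophil markers. Adam8, a membrane protease, had 89.2, 187.4 and 109.7 TPM, and the inhibitor gene Timp2 had 11.9, 4.63 and 3.96 TPM.

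None of the 9 homing genes was at least 2-fold apart between the highest and lowest mouse on the log2(TPM + 1) scale, compared with 8.57% of the 15181 detected genes. At 1.5-fold, 2 of 9 did, Cxcr4 and Itgb2, compared with 27.2% of detected genes, so the share of members was close to that background. Their SDs on the log2(TPM + 1) scale ran from 0.15 for S1pr1 to 0.35 for Cxcr4, with a median of 0.18 against 0.21 for all detected genes. After upper-quartile scaling the medians were 0.21 and 0.19, so which was larger changed with the scaling. The low SD of S1pr1 depended on adding 1 to values near 1 TPM. With 0.1 added instead, its SD was 0.26, above the 0.16 of Itgb1, and its TPM ratio between the highest and lowest mouse was 1.45.

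**Figure D5:**
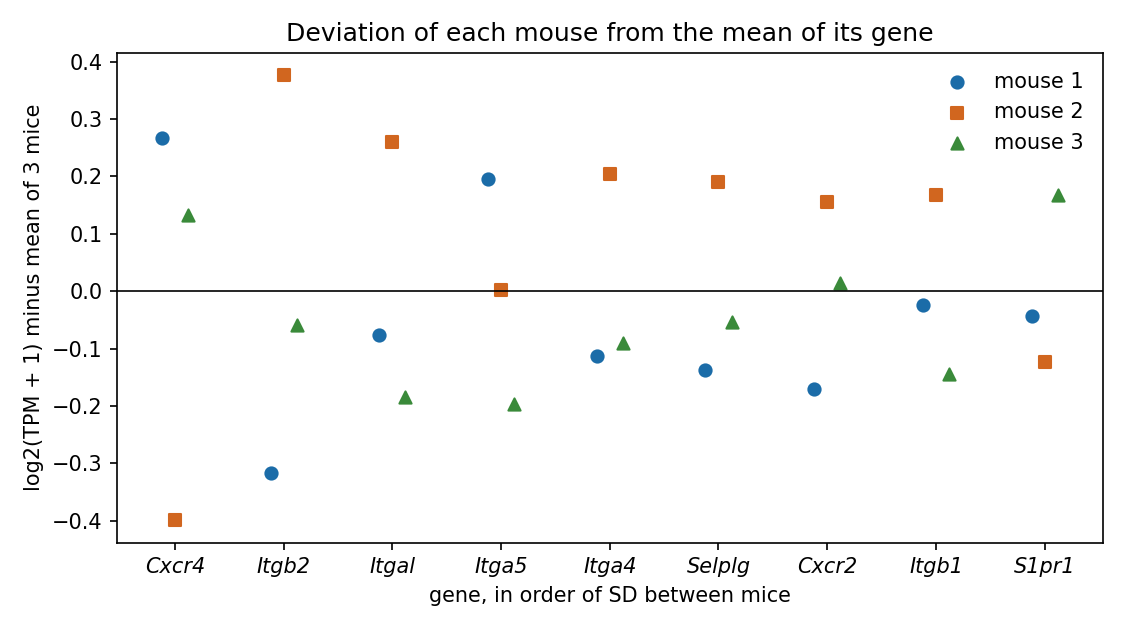
Deviation of each mouse from the mean of the 3 mice on the log2(TPM + 1) scale for the 9 genes, in order of SD. Mouse 2 lies above the mean for Itgb2, Itgal, Itga4, Selplg, Cxcr2 and Itgb1 and lies farthest below it for Cxcr4.

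The mice did not contribute equally. Mouse 2 was highest for 6 of the 9 genes (Itga4, Itgb1, Selplg, Itgb2, Itgal and Cxcr2), compared with 31.1% of detected genes, and the same number held after upper-quartile scaling, against 33.9%. Mouse 1 was highest for 2 genes, compared with 48.6%, and for 1 gene after scaling, against 35.6%. Mouse 3 was highest for 1 gene, compared with 20.3%, and for 2 after scaling, against 30.4%. Mouse 2 was also farthest from the mean of the 3 mice for 6 of 9 genes, compared with 29.9% of detected genes, and for 4 of 9 after scaling, against 33.3%. Without mouse 2 the SD of Itga4 fell from 0.18 to 0.015, that of Selplg from 0.17 to 0.059, and that of Cxcr4 from 0.35 to 0.095. Mouse 2 lay farthest from the mean for these genes, so leaving it out had to lower their SD. The SD also fell for Itgb2, Itgal, Itgb1 and Cxcr2, stayed at 0.15 for S1pr1 and rose from 0.20 to 0.28 for Itga5. Without mouse 2 the median SD of the 9 genes was 0.095.

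The summed level of dendritic cell markers ranked the mice as some of these genes did. The 7 markers summed to 394.8, 874.2 and 597.5 TPM in mice 1, 2 and 3, and all were detected. Mouse 2 had the highest value of 5 of them, with or without upper-quartile scaling. Itgax stands in this list too. Clec9a, a marker of cross-presenting dendritic cells, had 184.0, 414.9 and 273.1 TPM. Itgb2, Itga4, Selplg and Cxcr2 ranked the mice as the sum of the 7 markers did. For Itga4, mice 1 and 3 were close (221.0 and 224.3 TPM). Itgal and Itgb1 instead had their lowest value in mouse 3 as deposited and in mouse 1 after scaling. With 3 mice few orders are possible, and the share of detected genes with this order was not computed. Mouse 2 was highest for 31.1% of detected genes. The part of dendritic cells in these levels was not tested. Progenitor markers were present throughout: all 8 examined were detected, Kit had 139.5, 149.2 and 133.1 TPM and Cd34 had 202.4, 140.8 and 137.2 TPM.

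Genes whose pattern over the 3 mice was nearest to Cxcr4 and to Itgb2, the members with the largest SD, were sought among 9515 genes with a mean of at least 10 TPM. Nearness was the distance between log2(TPM + 1) values centred on each gene's mean. For Cxcr4 these were Fancg (distance 0.0034), Ctsg (0.034) and Pbk (0.034), and 50 genes lay within 0.1. For Itgb2 they were Gm16251 (0.0049), Ifi205 (0.010) and Tcte2 (0.015), and 85 genes lay within 0.1. With 3 mice, many genes come this close.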

How the data were processed

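RNA of c-Kit-enriched leukemic splenocytes was sequenced in 3 mice of 1 group. Per the labels, libraries were stranded and paired-end (150 nt), and 1 protocol names ribosomal depletion and another an mRNA kit. The submitters' processing notes name kallisto and mm10 without role or version. The deposited table is named as log2 FPKM, but its values are linear, never negative and sum to between 927169 and 929731 per column, so the values the authors deposited were treated as TPM. TPM keeps no depth, so depth per library is unknown and no counting interval can be given. The 3 columns of another series were not used.

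Rows without a symbol (795) or with a date as symbol (27) were left out (0.734% to 0.787% of TPM), and rows with the same symbol were summed. Detection meant a mean of at least 1 TPM. Mean, SD and log2(TPM + 1) differences were computed over mice. No test between groups was possible with 1 group, and within-mouse differences are given as mean and SD with no test. Members and lists were chosen with earlier results of these data known. The text names all members. For each pathway list the rule takes the gene with the highest mean, the lowest and those at least 2-fold apart on the log2(TPM + 1) scale, at most 6 a list (the lowest ligand and protease genes fell outside that number), and the 3 genes nearest in pattern to the 2 most variable members. Cxcl12, Cx3cr1, Icam2, Cd69, S1pr2 to S1pr5, Itgb7, Itgad, Fut7, Tln1, Fermt1, Fermt3, Gnai2, Kit, Cd34, Clec9a, Ly6g, Retnlg and Cerkl were chosen after their values were seen. Of the marker genes, 2 erythroid symbols were not matched. Alternatives covered pseudocount, thresholds, scaling, rows per symbol and each mouse left out. The counting and pattern search were tested on simulated data. Python 3.11.15, numpy 2.4.6, pandas 2.3.3 and matplotlib 3.10.9 were used.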

Additional observations from a re-analysis of the deposited data

How the results depend on the processing

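The number of members detected (9) was within 1.5 times under all 5 alternatives and was lowest, at 8, with a threshold of 5 TPM, which S1pr1 missed. The count of members at least 2-fold apart between mice was 0 under 5 of 6 alternatives and 2 with a 1.5-fold threshold. Leaving out a mouse cannot widen a range, so the count had to stay at 0 in those settings. At 2-fold, only the pseudocount and the scaling could have raised the count. The median spread of the members ranged from 0.0954 (without mouse 2) to 0.231 (without mouse 3) when a mouse was left out, and the other 4 alternatives kept it within 1.5 times its value. With mouse 1, 2 or 3 left out, the median over all detected genes was 0.144, 0.180 and 0.189, so the members' median was above it without mouse 1 or mouse 3 and below it without mouse 2. The log2 difference of Itgb2 and Itgb1 kept its sign in all 4 alternatives. That outcome was fixed, since the difference was negative in each mouse and a pseudocount cannot reverse which gene is higher. Leaving out 1 of 3 mice cannot move a mean by as much as the SD. All members had a single row, so the choice of rows changed nothing. Only the pseudocount and the scaling could have moved a member level that far. In all, 53 of 54 recomputed member levels moved by less than the SD between mice. The exception was S1pr1 with a pseudocount of 0.1, at 0.32 in place of 1.10. Of 54 recomputed spreads 44 stayed within 1.5 times, and 6 of the other 10 were without mouse 2. The comparison by upper-quartile scaling of the mouse in which members were highest was chosen after seeing the data. A fit by replicate pairs could not be made with a single group. With 3 libraries of unknown depth, the share of counting error in low values such as S1pr1 cannot be stated.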
